A study of Homo sapiens with 4 samples.

Results

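The RUNX transcription factors are a family of 4 genes here, *RUNX1*, *RUNX2*, *RUNX3* and *CBFB*, of the 34241 gene identifiers counted in the series. *RUNX1*, *RUNX2* and *RUNX3* encode alternative DNA-binding α subunits, and *CBFB* encodes the shared β subunit, which does not bind DNA and strengthens the binding of whichever α subunit it joins. *RUNX1* is best known from blood formation, *RUNX2* from bone formation and *RUNX3* from T cells, sensory neurons and the gut, and the 3 proteins recognise the same DNA motif. The family was picked for the higher *RUNX1* level in RV than in S, that is, chosen by its CPM, its share of cells with a UMI and the genes that go with it within RV cells, so those values are given as a description. All 4 members were counted in all 4 libraries.

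A375, an established human melanoma line that carries *BRAF* V600E, was measured by droplet single-cell RNA-seq (10x Genomics Chromium v2) in 4 cultures with 1 library each. S cells were untreated, and by the study's account the other cultures were made resistant to their drugs. RV cells had been kept on the BRAF inhibitor vemurafenib. RVC cells had been kept on vemurafenib and the MEK inhibitor cobimetinib, and RVT cells on vemurafenib and the MEK inhibitor trametinib. Drug exposure lasted 10 to 14 days and ended 24 h before capture, and no culture was repeated, so no test between conditions was possible. After filtering, S had 6335 cells, RV 4177, RVC 7691 and RVT 8536, with medians of 8804, 11553, 3959 and 2877 UMIs (unique molecular identifiers, each 1 counted transcript molecule). S and RV were counted with 33694 listed genes and RVC and RVT with 33538, and this difference, like depth, cannot be told apart from the addition of a MEK inhibitor. Of 8 melanocyte-lineage markers, *SOX10* and *S100B* had 0 UMIs in RVC against 5070 and 1939 in S, while *MITF* was at 7.96 UMIs per 1000000 in RVC and 9.73 in S, and *TYRP1* at 4.90 and 0.0684. *PMEL*, *MLANA*, *DCT* and *TYR* were at or near 0 in all libraries. The 8 summed to 12.98 UMIs per 1000000 in RVC, against 130 in S, 67.9 in RV and 62.3 in RVT. Markers of fibroblasts (*DCN*, *LUM*, *PDGFRA*, *COL3A1*, *THY1*) summed to 179 UMIs per 1000000 in RVC, 33.3 in RVT and less than 1 in S and RV. Of 10 blood cell markers, 6 to 8 had 0 UMIs in each library, *PTPRC* and *CD3E* among them, and their sum ran from 0.481 to 1.11 UMIs per 1000000. By the study's account, the identity of the A375 cells was established before the experiments. A check of the RVC culture after drug exposure is not stated. The identity of RVC was not tested here either, which touches every RVC value. Pairs of libraries shared 38 to 149 cell barcodes.

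Each RUNX gene is known to be transcribed from a distal and a proximal promoter. RefSeq (GRCh38.p14) windows were matched for *RUNX1*, *RUNX2* and *RUNX3*, 5 in all. The 250 bases before the RefSeq start are shown for the paralog that led in RV, in RVC and in S. These are *RUNX1* (its only matched window, inside the gene), *RUNX2* (distal) and *RUNX3* (distal). Capitals mark TGTGGT or its reverse complement ACCACA, the core that RUNX proteins recognise, and TGANTCA, which is its own reverse complement and is the core recognised by AP-1 factors such as FOSL1 and JUN. The windows are chr21:34888700-34888949 (minus strand), chr6:45328080-45328329 (plus strand) and chr1:24965011-24965260 (minus strand), in that order.
RUNX1: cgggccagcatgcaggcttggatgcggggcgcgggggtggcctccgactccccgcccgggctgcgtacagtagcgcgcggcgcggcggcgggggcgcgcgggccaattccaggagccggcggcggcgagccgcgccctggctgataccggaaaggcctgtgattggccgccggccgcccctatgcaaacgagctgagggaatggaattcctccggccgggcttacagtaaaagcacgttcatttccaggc
RUNX2: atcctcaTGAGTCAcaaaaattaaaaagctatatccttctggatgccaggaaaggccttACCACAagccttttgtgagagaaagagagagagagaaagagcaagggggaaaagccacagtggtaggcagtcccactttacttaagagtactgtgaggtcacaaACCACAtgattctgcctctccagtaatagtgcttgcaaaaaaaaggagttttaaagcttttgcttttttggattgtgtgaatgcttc
RUNX3: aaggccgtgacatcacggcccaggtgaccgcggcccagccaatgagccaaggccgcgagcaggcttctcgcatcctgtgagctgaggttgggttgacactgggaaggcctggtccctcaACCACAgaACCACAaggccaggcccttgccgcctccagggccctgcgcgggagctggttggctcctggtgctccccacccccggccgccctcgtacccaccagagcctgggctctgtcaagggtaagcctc
The distal *RUNX2* window held 2 RUNX cores and 1 AP-1 core, and the distal *RUNX3* window held 2 RUNX cores and no AP-1 core. The *RUNX1* window and the proximal windows of *RUNX2* (chr6:45422025-45422274) and *RUNX3* (chr1:24930277-24930526) held neither core. A distal *RUNX1* window was not matched, so whether it holds a core was not examined, and the printed windows are not like promoters. Of 35116 RefSeq windows of this length, 10.98% held a RUNX core and 6.57% an AP-1 core on either strand. A match describes the letters and not a bound site, and counts taken at the 3′ end of transcripts do not tell which promoter was used.

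The leading α subunit was *RUNX3* in S, *RUNX1* in RV and RVT, and *RUNX2* in RVC. Levels are given as CPM, counts per 1000000 UMIs of a library, and the ranges in brackets are exact 95% Poisson intervals, which cover counting error only. 1 UMI stands for 1 captured molecule whatever its length. The share of a gene's molecules that is captured was not measured, so levels of different genes are compared as UMIs. S held 659 *RUNX1* UMIs, RV 3141, RVC 292 and RVT 584. The level was 60.0 CPM in RV (57.9 to 62.2) beside 11.3 in S (10.4 to 12.2), and RVC and RVT had 8.78 (7.80 to 9.84) and 22.7 (20.9 to 24.6). The 4 intervals did not overlap, with RV highest, RVT next, then S and RVC. The *RUNX2* UMIs numbered 126 (S), 119 (RV), 1025 (RVC) and 366 (RVT), or 2.15 CPM (1.79 to 2.57), 2.27 (1.88 to 2.72), 30.8 (28.9 to 32.7) and 14.2 (12.8 to 15.7). S and RV were alike within their counting intervals, while the libraries that had received a MEK inhibitor stood above both, RVC further than RVT. Those of *RUNX3* numbered 919, 365, 448 and 381 in the same order, or 15.7 CPM (14.7 to 16.8), 6.98 (6.28 to 7.73), 13.5 (12.2 to 14.8) and 14.8 (13.3 to 16.4). RV was the low library for *RUNX3*, and the intervals of RVC and RVT overlapped. *CBFB* had 602, 501, 740 and 656 UMIs in S, RV, RVC and RVT, or 10.3 CPM (9.49 to 11.2), 9.57 (8.75 to 10.5), 22.2 (20.7 to 23.9) and 25.5 (23.6 to 27.5). The β subunit thus had overlapping intervals in S and RV and higher levels in RVC and RVT, whose intervals overlapped at their ends.

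**Figure D1:**
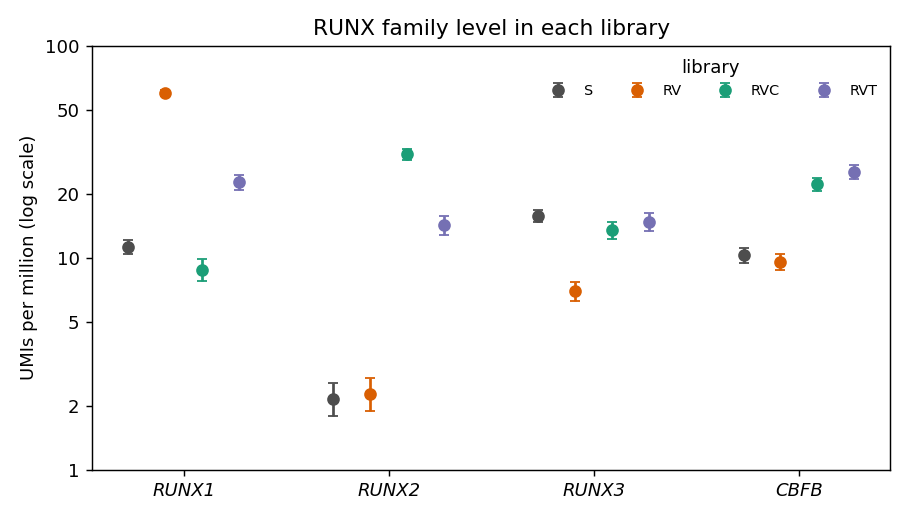
Level of *RUNX1*, *RUNX2*, *RUNX3* and *CBFB* in each library, in CPM on a log axis, with exact 95% Poisson intervals (counting error only, 1 library per condition). *RUNX1* stands highest in RV at 60.0, *RUNX2* in RVC at 30.8, and *RUNX3* lowest in RV at 6.98.

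The difference that picked the family was a *RUNX1* level 5.33 times higher in RV than in S (4.90 to 5.80), and 16 of 9595 genes had a larger ratio, counting genes whose mean over the libraries compared was 3 CPM or more. In that comparison 2.45% of the genes were at least 2-fold higher in RV and 1.80% at least 2-fold lower. *RUNX3* went the other way, 2.25 times lower in RV than in S (1.99 to 2.55), a log2 ratio of -1.17 that was -0.94, under 2-fold, in cells thinned to 1500 UMIs. The *CBFB* level in RV was 0.930 times that in S (0.824 to 1.05) and the *RUNX2* level 1.06 times (0.815 to 1.37), both intervals spanning 1. *RUNX2*, with a mean under 3 CPM, was not among the genes counted for this comparison.

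In RVC the member that differed most from S was *RUNX2*, 14.3 times higher (11.9 to 17.3). *CBFB* was 2.16 times higher (1.94 to 2.41), whereas *RUNX1* was 0.779 times (0.676 to 0.895) and *RUNX3* 0.857 times (0.764 to 0.960) the S level. Over all genes, 23.4% of 9957 were at least 2-fold higher and 21.9% at least 2-fold lower in RVC than in S. *RUNX2*, under 3 CPM in S, was among the genes counted for RVC and RVT only through its level there, so its place among them is no result. In RVT, *RUNX2* was 6.60 times higher than in S (5.37 to 8.14), *CBFB* 2.47 times (2.21 to 2.77) and *RUNX1* 2.01 times (1.80 to 2.25), with *RUNX3* at 0.941 times (0.833 to 1.06). There, 33.7% of 10377 genes were at least 2-fold higher and 21.1% at least 2-fold lower, and 33.4% of the genes had a larger ratio than *RUNX1*, so the RVT value of *RUNX1* lay within the bulk of the genes. The 3 sets of ratios share the S library. Scaled with TMM factors, which moved every log2 ratio by -0.22 in RVC and -0.52 in RVT, the log2 ratio of *RUNX1* in RVT against S was 0.49 in place of 1.01, and that of *RUNX3* was -0.60 in place of -0.09. *CBFB* was under 2-fold with TMM, at log2 ratios of 0.90 in RVC and 0.79 in RVT in place of 1.11 and 1.31, and also when ratios were centred on genes of like GC content, at 0.50 and 0.51. The same centring gave *RUNX2* in RVT a log2 ratio of 1.93 in place of 2.72. Under TMM the share of higher genes among those past 2-fold was 40.3% in place of 51.7% in RVC and 41.2% in place of 61.5% in RVT.

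The combinations with cobimetinib and trametinib, allosteric MEK inhibitors whose doses were set separately, also differed from each other. *RUNX1* was 2.58 times higher in RVT than in RVC (2.24 to 2.98), and *RUNX2* was 2.17 times lower (1.92 to 2.45). The ratio of *RUNX3* was 1.10 (0.956 to 1.26) and that of *CBFB* 1.15 (1.03 to 1.27), but with TMM both were lower in RVT, at log2 ratios of -0.17 and -0.11. Of 10178 genes, 19.7% were at least 2-fold higher and 11.1% at least 2-fold lower in RVT than in RVC, and under TMM, which moved these log2 ratios by -0.30, the share of higher genes among them was 41.5% in place of 64.0%.

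Set against each other, the α subunits changed place from library to library. In S, *RUNX3* gave 53.9% of the 1704 UMIs of the 3 genes (exact Clopper-Pearson interval 51.5% to 56.3%), *RUNX1* 38.7% and *RUNX2* 7.39%. In RV, *RUNX1* gave 86.6% of 3625 UMIs (85.5% to 87.7%), *RUNX3* 10.1% and *RUNX2* 3.28%. In RVC, *RUNX2* gave 58.1% of 1765 UMIs (55.7% to 60.4%), *RUNX3* 25.4% and *RUNX1* 16.5%. RVT had no paralog above one in 2 UMIs. There *RUNX1* gave 43.9% of 1331 UMIs (41.2% to 46.6%), *RUNX3* 28.6% and *RUNX2* 27.5%, the intervals of the latter pair overlapping. These shares do not depend on how libraries are scaled, but they were not recomputed with GC centring. In RVT against S, genes of like GC content to *RUNX1*, *RUNX2*, *RUNX3* and *CBFB* had median log2 ratios of -0.06, 0.79, 0.45 and 0.80. S had 29.1 CPM of the 3 genes summed and RV 69.3, while RVC and RVT had 53.0 and 51.7. For each *CBFB* UMI, RV had 7.24 α subunit UMIs (6.59 to 7.96). The other libraries had 2.83 (S, 2.58 to 3.11), 2.39 (RVC, 2.19 to 2.60) and 2.03 (RVT, 1.85 to 2.23). *RUNX1*, whose level picked the family, gave 3141 of the 3625 UMIs in RV, so the higher RV value restates that choice and is no separate result.

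**Figure D2:**
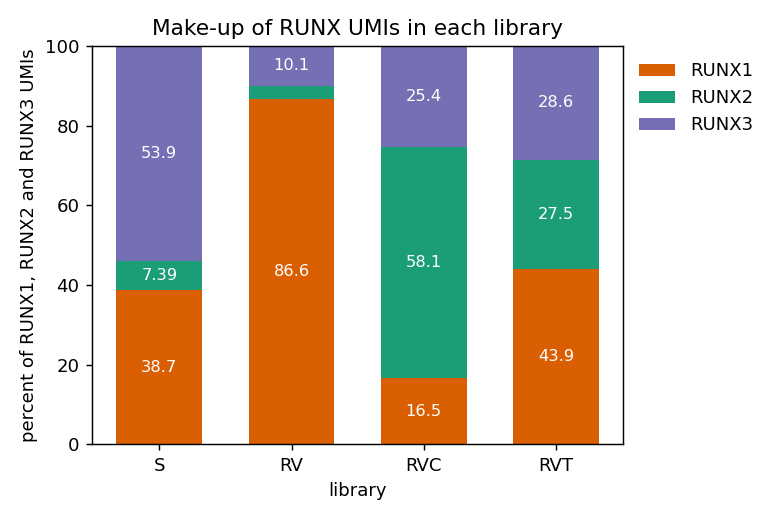
Share of *RUNX1*, *RUNX2* and *RUNX3* among their summed UMIs in each library, in percent; each bar adds up to all RUNX UMIs of 1 library. The largest part is *RUNX3* in S (53.9%), *RUNX1* in RV (86.6%), *RUNX2* in RVC (58.1%) and *RUNX1* in RVT (43.9%).

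No counted gene around *RUNX1* on its chromosome was as much higher in RV as *RUNX1* itself. *RUNX1* (ENSG00000159216) lies on chromosome 21 from 34787801 to 36004667 on the minus strand (GRCh38, GENCODE 29). Neighbours were other counted genes whose lower coordinate lies within 2 Mb of the member's own. On the minus strand the lower coordinate is the end of the gene. The 18 neighbours of *RUNX1* had a median log2 ratio of -0.11 in RV against S, with 0 of them 2-fold higher and 1 lower. Their highest value was 0.49, for *CHAF1B*. Of all genes 2.45% were 2-fold higher and 1.80% lower, so 0 among 18 is no result about the region. *RUNX2* (ENSG00000124813) lies on chromosome 6 from 45328157 to 45664349 on the plus strand, and in RVC against S its 19 neighbours had a median of 0.48, 6 of them at least 2-fold higher and 1 lower, beside a median of 0.44 over the 467 counted genes of the chromosome and 23.4% higher and 21.9% lower among all genes. *RUNX3* (ENSG00000020633) lies on chromosome 1 from 24899511 to 24965121 on the minus strand. Its 44 counted neighbours had a median of 0.00 in RV against S. Of them, 1 was at least 2-fold lower and 1 higher (*SFN*, 2.24), near the 1.80% and 2.45% of all genes. *CBFB* (ENSG00000067955) lies on chromosome 16 from 67029116 to 67101058 on the plus strand, and its 41 neighbours had a median of 0.39 in RVT against S, 14 of them at least 2-fold higher and 9 lower, near the 33.7% and 21.1% of all genes, beside a median of -0.09 over the chromosome. The antisense gene *RUNX3-AS1* had 0 UMIs in all libraries and *RUNX2-AS1* had 1 UMI in RV and 0 elsewhere.

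The share of cells in which a member was seen followed depth as well as level. A *RUNX1* UMI was found in 9.66% of S and 39.8% of RV cells, and in 3.72% of RVC and 6.55% of RVT cells. After every cell was thinned to 1500 UMIs, leaving out 403 RVC and 849 RVT cells with fewer and none of S or RV, the share was 8.28% in RV (7.47% to 9.16%) beside 1.64% in S (1.34% to 1.99%). RVC had 1.47% (1.20% to 1.77%) and RVT 3.33% (2.94% to 3.76%). RVT thus stood above S at equal depth, although not with all UMIs counted. *RUNX2* was seen in 0.363% of thinned S and 0.311% of thinned RV cells, but in 4.68% of RVC and 2.16% of RVT cells. *RUNX3* was seen in 2.42%, 1.27%, 1.82% and 2.38%, and *CBFB* in 1.45%, 1.29%, 3.38% and 3.62%, of thinned S, RV, RVC and RVT cells. At 5000 UMIs per cell, a depth that 5984 S and 4077 RV cells reached, *RUNX1* was seen in 5.45% of S cells (4.89% to 6.05%) and 22.9% of RV cells (21.6% to 24.2%). A share of cells with a UMI is not a share of cells that express the gene, and free RNA, which could be measured in a cell type known to be without the gene, was not measured in these cultures of 1 line.

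Within RV, *RUNX1* UMIs were unevenly spread over cells. Of 4177 RV cells, 2515 had no *RUNX1* UMI, 907 had 1, 755 had 2 or more and 184 had 4 or more, with a highest count of 11. Spread over the cells in proportion to their depth, the same 3141 UMIs would have left 49.2% of cells without a UMI, and 60.2% had none. That spread would have put 4 or more UMIs in 52.7 cells, and the 184 cells observed held 28.3% of all *RUNX1* UMIs. In S the corresponding values were 90.2% and 90.3%, and 1 cell had 4 UMIs. At 5000 UMIs per cell, the variance of *RUNX1* over its mean was 1.47 in RV and 1.03 in S, where 1.00 is the value of pure counting noise. The same quantity was 0.989 in both libraries for *RUNX2*, 1.06 in S and 1.03 in RV for *RUNX3*, and 1.00 and 1.04 for *CBFB*. A low mean brings this ratio towards 1, and *RUNX1* had a mean of 0.324 UMIs per thinned cell in RV against 0.0568 in S.

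**Figure D3:**
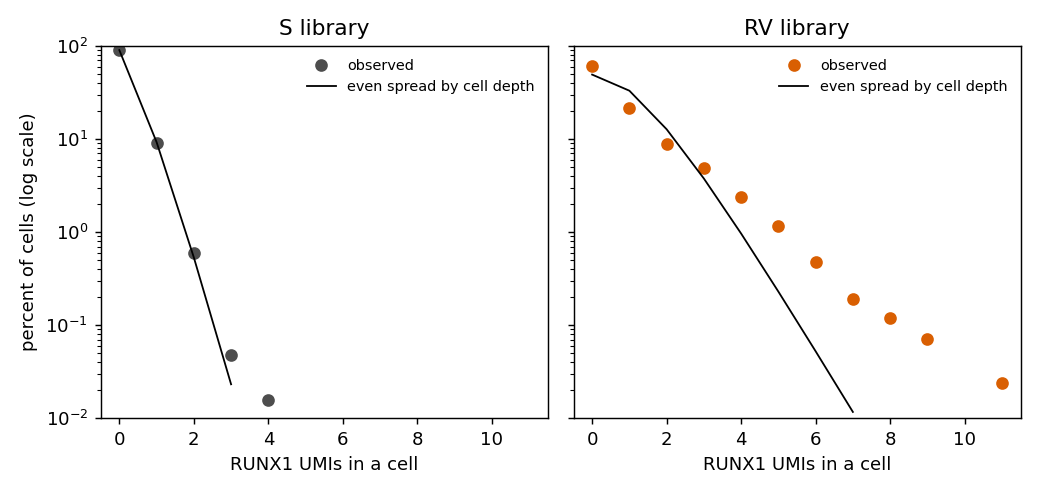
Percent of cells (log axis) by number of *RUNX1* UMIs in the cell, in S and RV with all UMIs counted. Points are observed cells and the line is an even spread of the same UMIs in proportion to cell depth, left out under 0.01%; in RV the points lie above the line at 0 UMIs (60.2%) and from 3 UMIs upwards, with 11 UMIs at most.

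Few cells had UMIs of more than 1 member. At 5000 UMIs per cell, 33 RV cells had a UMI of both *RUNX1* and *RUNX3*, where the product of the shares gives 33.0, and 10 had *RUNX1* and *RUNX2*, where it gives 10.3. In S the pair *RUNX1* and *RUNX3* was seen in 22 cells beside a product of 23.4. *RUNX1* and *CBFB* were seen in 38 RV cells beside 44.9. At 1500 UMIs per cell, 18 RVC cells had both *RUNX2* and *CBFB* beside a product of 11.51. *RUNX1* and *RUNX2* were seen together in 5 RVC cells, where the product gives 5.01. In RVT each of the 6 pairs of members was seen in fewer cells than the product, with *RUNX1* and *RUNX2* in 2 cells beside 5.53 and *RUNX2* and *RUNX3* in 2 cells beside 3.95. These counts are too small to tell whether paralogs share or avoid cells.

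The *RUNX1* level was also compared between cell states within a library. States were read from genes that mark them, in cells thinned to 5000 UMIs, and a cell without a UMI of a state gene may still express it. In RV cells with a UMI of *KRT81*, a keratin gene, *RUNX1* was at 52.8 CPM, and in RV cells without one at 78.3, a ratio of 0.675 (0.604 to 0.753). In S the order was the reverse, 13.4 CPM with and 8.92 without *KRT81*, a ratio of 1.51 (1.20 to 1.90). At 1500 UMIs the ratio was 0.755 (0.603 to 0.940) in RV and 1.17 (0.783 to 1.76) in S, the S interval spanning 1. RV cells with a UMI of *SOX10*, a neural crest and melanocyte transcription factor, had 76.1 CPM of *RUNX1* and those without it 62.2 CPM. RV cells with a UMI of *NGFR*, a neural crest stem cell receptor, had 42.1 CPM and the rest 65.9 CPM, from 190 and 3887 cells. For *AXL*, a receptor tyrosine kinase of dedifferentiated melanoma, the RV values were 66.0 CPM with and 63.5 without, a ratio of 1.04 (0.931 to 1.16). In S the *AXL* ratio was 1.31, and 1.46 (0.826 to 2.44) at 1500 UMIs. For *FOSL1*, an AP-1 subunit under the control of the MAPK pathway, the RV values were 66.0 and 62.0 CPM. RV cells with a UMI of *CDKN1A*, the cell cycle inhibitor p21, had 58.9 CPM of *RUNX1* and those without had 68.7.

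Ordered by their share of G2/M genes, the lowest, middle and highest 1 in 3 RV cells had *RUNX1* levels of 68.6, 71.4 and 54.3 CPM, and those of S cells 9.73, 11.1 and 13.2 CPM. At 1500 UMIs, the same split of RVT cells gave 22.6, 21.6 and 23.4 CPM of *RUNX1*. That of S cells gave 9.16 (6.13 to 13.2), 13.6 (9.82 to 18.3) and 10.1 (6.91 to 14.3) at 1500 UMIs, so the steady rise in S was not seen at this depth. That of RV cells gave 66.1, 67.0 and 53.1.

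**Figure D4:**
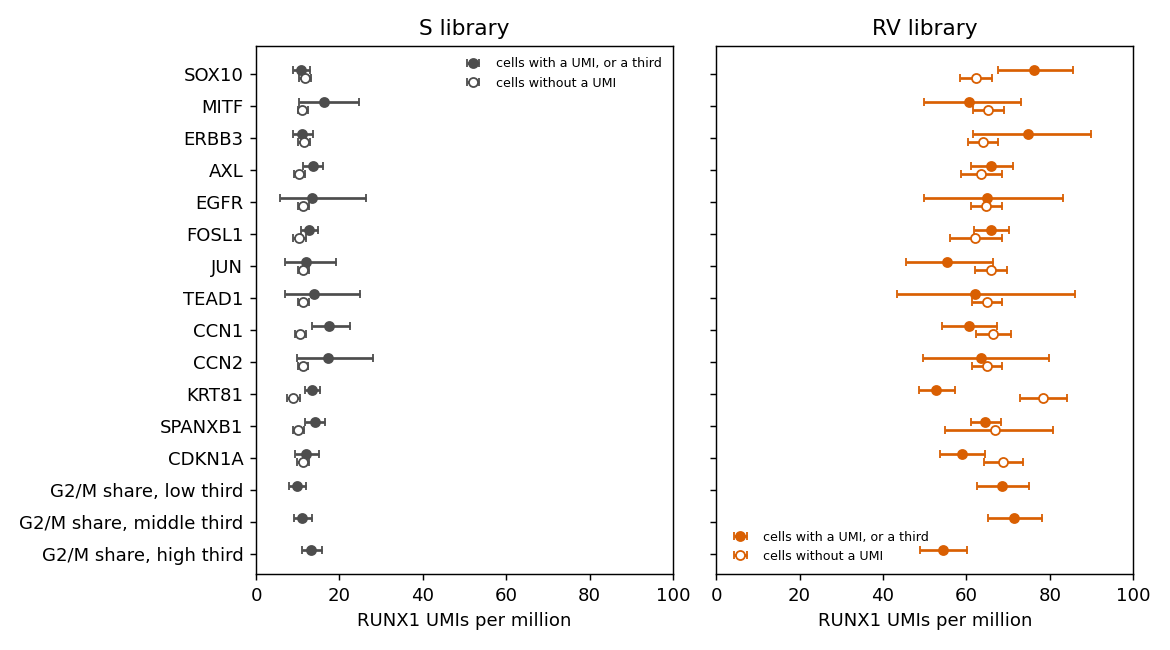
*RUNX1* level in CPM in S and RV cells thinned to 5000 UMIs, split by whether a state gene has a UMI (filled: with, open: without) or into 3 equal parts by G2/M gene share, with exact 95% Poisson intervals. All S points shown lie below 20 and all RV points shown above 50; *NGFR*, with few S cells, is left out, and RV cells with a UMI of it had 42.1 CPM.

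Fibroblast markers were seen in RVC, and *RUNX2* UMIs were found in cells with and without a UMI of them. Of 7288 RVC cells thinned to 1500 UMIs, 1571 had a UMI of at least 1 of the 5 fibroblast markers. Their *RUNX2* level was 37.8 CPM, and the other 5717 had 30.6 CPM, a ratio of 1.24 (0.961 to 1.58). At this depth a cell without a marker UMI may still carry the markers, so the split does not separate cells that do from cells that do not. *RUNX1* was at 9.34 and 10.0 CPM in the same cells. RVC cells with a UMI of *AXL* had 46.4 CPM of *RUNX2* and those without had 30.5, a ratio of 1.52 (1.11 to 2.05), whereas in RVT this ratio was 0.967 (0.588 to 1.52). In RVT, *RUNX2* was at 23.4 CPM in cells with a UMI of *CCN1*, a YAP and TAZ target, and at 13.5 CPM in cells without, a ratio of 1.74 (1.14 to 2.57), whereas in RVC it was 0.866 (0.456 to 1.501). Splits with few UMIs carry wide intervals, and these are a handful among the splits made.

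The genes whose UMIs went most with those of *RUNX1* across 4177 RV cells were *NPM1* (a nucleolar chaperone, Pearson correlation 0.18), *TMSB10* (an actin-binding peptide, 0.17), *HNRNPA1* (a splicing factor, 0.13), *NHP2* (a protein of H/ACA ribonucleoproteins, 0.13), *RACK1* (a ribosomal scaffold, 0.13), *IL13RA2* (an interleukin receptor, 0.13), *VIM* (the filament protein vimentin, 0.12), *CD59* (a complement inhibitor, 0.12), *CAPS* (a calcium-binding protein, 0.12) and *RPL7* (a ribosomal protein, 0.12). The lowest were *TGFBI* (a matrix protein, -0.13), *RPL4* (-0.13), *GAGE2A* (a cancer-testis antigen of a multigene family, -0.13), *SERINC2* (-0.13) and *RPS3A* (-0.12). Correlations were taken over 8600 genes seen in at least 5% of RV cells, on counts corrected for cell depth, and cells of 1 library share their capture and depth. All are weak, and no p-value was given. The list depends on the measure of likeness, since by the ratio of levels in cells with and without a *RUNX1* UMI 0 of the 10 were among the first 10 genes and 1 among the first 50. Reads of ribosomal protein genes, *NPM1*, *HNRNPA1* and *GAGE2A* can be split with near-identical copies.

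In S, 1 of the 10 genes (*TMSB10*, 0.04) had a correlation above 0, and *NPM1* was at -0.06, where the lowest value of any gene was -0.07. *RUNX1* had 0.104 UMIs per cell in S against 0.752 in RV, and the part of this in the correlations was not tested. In S the highest correlation of any gene with *RUNX1* was 0.06, in RVC 0.04 and in RVT 0.05. Of the same 10, 3 (*TMSB10*, *VIM* and *CD59*) had a higher level in RV than in S, where the median log2 ratio over 9595 counted genes was 0.02. *NPM1* was at 2644 CPM in S and 1943 in RV, while *SERINC2*, on the low side, was 4.49 times higher in RV than in S and *GAGE2A* 20.03 times. RV cells with a *RUNX1* UMI at 5000 UMIs had 63.0 CPM of *CAPS* and cells without had 39.0, and for *NPM1* the levels were 2116 and 1908 CPM. Of the 10 genes, *NPM1*, *NHP2* and *RACK1* lie on chromosome 5, as does *TGFBI*, the gene with the lowest correlation. The share of all correlated genes on that chromosome was not taken, so this count is no result. Among 210 windows of 10 Mb with at least 15 genes, the window at 170 to 180 Mb of chromosome 5 had the highest mean correlation, 0.02 over 50 genes, beside -0.00 over all genes, and the window at 30 to 40 Mb of chromosome 11, which holds *CD59*, was nearly level with it (0.02 over 22 genes). The mean of the chromosome 5 window includes *NPM1* and *NHP2*, but not *RACK1*, which starts at 181236909, and that of the chromosome 11 window includes *CD59*. Both windows were chosen after their values were seen. Of the other genes listed for this report, *TLE4* had the highest correlation (0.06) and *CDKN1A* the lowest (-0.10).

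RUNX proteins switch between activation and repression with the proteins they bind. Of 12 co-repressor genes, 9 were counted in RV against S and 0 were 2-fold different, beside 2.45% of all genes higher and 1.80% lower, with a median log2 ratio of -0.13 beside 0.02 over all genes. In RVT against S, 4 of 9 were at least 2-fold higher and 0 lower, with a median of 0.55 beside 0.41, where 33.7% of all genes were 2-fold higher. Those were *TLE1* and *TLE4*, of the Groucho family that binds the RUNX C terminus, *SIN3A*, a scaffold of histone deacetylase complexes, and *CBFA2T2*, of the family of the *RUNX1* fusion partner ETO. In library order S, RV, RVC, RVT, *TLE1* was at 5.66, 8.54, 7.002 and 25.9 CPM and *TLE4* at 39.5, 33.0, 46.1 and 116 CPM. *SIN3A* was at 10.6 CPM in S and 39.5 in RVT, and *CBFA2T2*, with 3.37 and 8.15 CPM, was no longer 2-fold higher under TMM. With that scaling 3 were higher and 2 lower (*TLE3* and *HDAC3*), with a median of 0.03 beside -0.11, and 2119 of 10377 genes were higher and 3030 lower. In RVC, 1 of 8 was 2-fold higher (*TLE3*, 3.98 CPM in S and 9.05 in RVC, under 2-fold with TMM) and 1 lower (*HDAC3*, 39.6 and 18.8 CPM), beside 23.4% and 21.9% of all genes.

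Of 9 coactivator genes, 0 were 2-fold different in RV against S, beside 2.45% of all genes higher and 1.80% lower, with a median log2 ratio of -0.32 beside 0.02. In RVC 5 were at least 2-fold higher and 1 lower, with a median of 1.04 beside 0.22 over all genes, of which 23.4% were 2-fold higher. In RVT the counts were likewise 5 and 1, with a median of 1.11 beside 0.41 and 33.7%. The histone acetyltransferases *EP300* and *CREBBP* were at 4.67 and 9.82 CPM in S, 11.3 and 20.2 in RVC and 18.6 and 43.0 in RVT. *KMT2A*, a histone methyltransferase that binds RUNX1, was at 24.7 and 22.6 CPM in S and RV, and at 75.1 and 101 CPM in RVC and RVT. *YAP1*, a Hippo pathway coactivator, was at 11.6, 12.1, 25.7 and 51.4 CPM. *PRMT1*, an arginine methyltransferase that modifies RUNX1, went the other way. It had 214 and 176 CPM in S and RV, and 23.7 and 5.86 CPM in RVC and RVT. *WWTR1*, which encodes TAZ, was at 150, 110, 133 and 75.3 CPM, so it did not rise with *YAP1*. Under TMM 3 coactivators were 2-fold higher and 1 lower in RVC, and 4 higher and 2 lower in RVT, where 1712 of 9957 genes were higher and 2540 lower in RVC and 2119 of 10377 higher and 3030 lower in RVT.

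Factors that bind DNA beside RUNX proteins include AP-1, ETS, C/EBP and SMAD proteins. In RV 2 of 9 counted genes were at least 2-fold higher than in S and 0 lower, beside 2.45% and 1.80% of all genes, both of them AP-1 subunits. *FOSL1* was at 164, 342, 117 and 14.99 CPM in the order S, RV, RVC, RVT, and *JUN* at 11.53, 23.3, 33.3 and 13.4 CPM, *JUN* being under 2-fold with TMM, which left 1 of 9. *FOS* was at 8.88 CPM in S and 8.12 in RV, and at 50.9 in RVC and 67.9 in RVT. The *FOSL1* level was highest in the library in which *RUNX1* was highest and *FOS* was high in the libraries in which *RUNX2* was high, over 4 libraries, which is too few to relate levels. In RVC 3 of 10 genes were 2-fold higher than in S (*JUN*, *FOS* and *SMAD3*), near the 23.4% of all genes. In RVT 7 of 10 were 2-fold higher, beside 33.7% of all genes, and 2 were lower, with *CEBPB* at 34.6 CPM in S and 129 in RVT, *SMAD2* at 23.7 and 82.9, and *ETS1* at 8.86 and 3.69. Under TMM 5 of 10 were 2-fold higher, where 2119 of 10377 genes were.

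Of 6 genes for the turnover of RUNX proteins, 0 were 2-fold different in RV against S, beside 2.45% of all genes higher and 1.80% lower, and the median log2 ratio was 0.42 beside 0.02, with all 6 above 0. In RVC *WWP1* and *SKP2*, which encode parts of ubiquitin ligases, were at least 2-fold higher, at 9.77 and 17.4 CPM against 3.28 and 6.89 in S, and *STUB1*, another of them, lower, near the 23.4% and 21.9% of all genes. *CDC20*, a mitotic activator of the anaphase-promoting complex, was at 69.3, 116, 35.2 and 4.23 CPM. In RVT 3 genes (*SMURF1*, *SMURF2* and *WWP1*) were 2-fold higher and *CDC20* lower, beside 33.7% and 21.1% of all genes. With TMM *SMURF2* was under 2-fold, and 2 genes were 2-fold lower in RVC and 2 in RVT, where 2540 of 9957 and 3030 of 10377 genes were.

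Genes known as RUNX targets in blood or bone were for the most part too low to compare. Of 20, the number with at least 3 CPM in the mean was 4 in RV against S, 6 in RVC against S and 5 in RVT against S. *IBSP*, *COL10A1*, *IL3* and *MPO* had 0 UMIs in all libraries, at a limit of 3 UMIs that corresponds to 0.0513 CPM in S and 0.116 CPM in RVT. In RV, *CDKN1A* and *TNFRSF11B*, which encodes the decoy receptor osteoprotegerin, were 2-fold higher than in S, beside 2.45% of all genes, with *CDKN1A* at 101 CPM in S against 248 in RV (137 and 113 in RVC and RVT). *TNFRSF11B*, under 3 CPM in S, was counted only through its RV level. In RVC, 5 of 6 were at least 2-fold higher and 0 lower, beside 23.4% of all genes, and 4 of 6 under TMM, where 1712 of 9957 genes were. In RVT 2 of 5 were higher and 0 lower, beside 33.7% and 21.1% of all genes, with a median of 0.16 beside 0.41. Under TMM 2 were higher and 1 lower in RVT, with a median of -0.35 beside -0.11, where 2119 of 10377 genes were higher and 3030 lower. *MMP13*, *TNFRSF11B* and *TGFBR1* were under 3 CPM in S and reached the minimum in RVC only through their level there, so that they had to differ. *TNFRSF11B* and *TGFBR1*, the 2 higher genes in RVT, likewise passed there only through RVT, and neither count is a result about the list. *SPP1*, which encodes the bone matrix protein osteopontin, was at 12.96 CPM in S and 6.76 in RV, but at 85.3 in RVC and back at 11.03 in RVT. *MMP13*, a collagenase of bone and cartilage, had 0 UMIs in S and 6.04 CPM in RVC, at least 118-fold higher than 3 UMIs in S, with 0.0573 CPM in RV and 0.233 in RVT. *TNFRSF11B* was at 2.57 CPM in S, 7.07 in RV and 7.54 in RVC but 75.3 in RVT. *TGFBR1*, a TGF-β receptor, was at 2.89, 2.98, 8.35 and 8.54 CPM, and *VEGFA* at 13.3, 11.7, 28.3 and 7.34 CPM. *COL1A1*, below the minimum in RVC and RVT against S, was at 0.154, 0.115, 2.79 and 3.61 CPM, higher in both RVC and RVT than in S. *SPP1* and *MMP13* had their highest level in the library with the highest *RUNX2* level. They did not in RVT, whose *RUNX2* level was 6.60 times that of S. The 4 libraries are too few to relate these levels. The fibroblast markers were also highest in RVC, and their part in the *SPP1*, *MMP13* and *RUNX2* values was not tested.

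**Figure D5:**
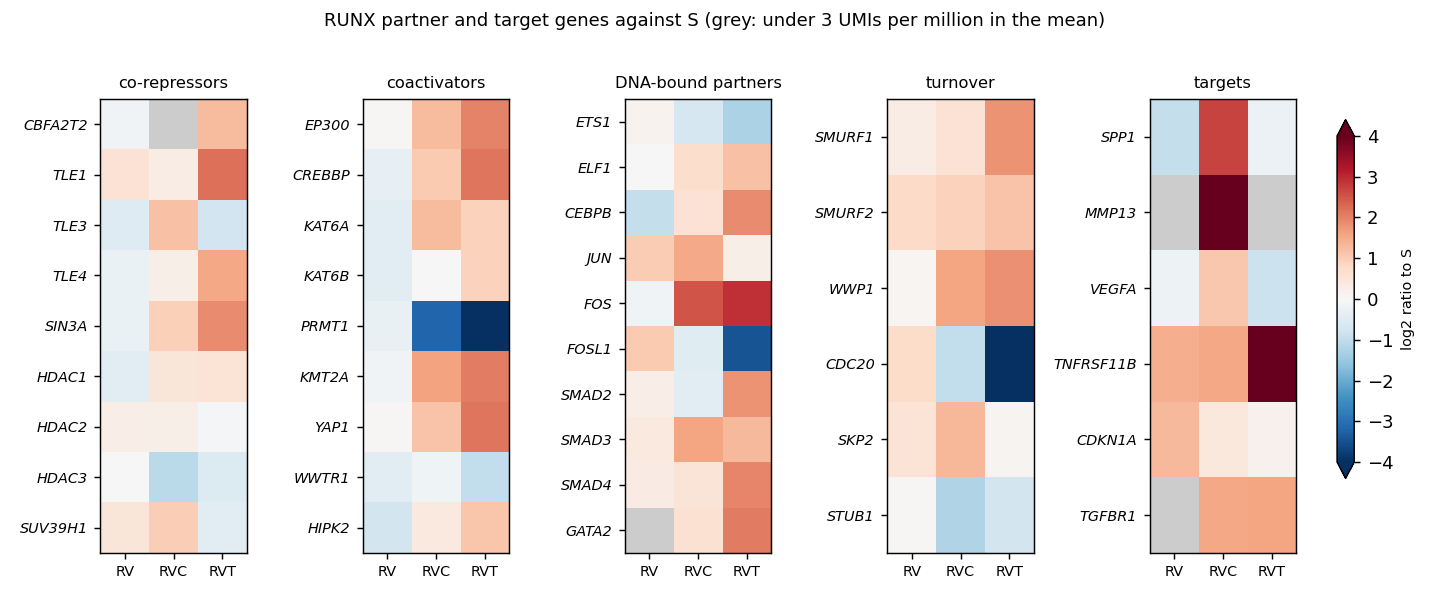
Log2 ratio to S in RV, RVC and RVT for counted genes of 5 lists (co-repressors, coactivators, DNA-bound partners, turnover and targets), on a colour scale that ends at 4 in either direction; grey marks genes with under 3 CPM in the mean. In RV the genes past 2-fold are *JUN*, *FOSL1*, *TNFRSF11B* and *CDKN1A*, with *CEBPB* and *SPP1* near it on the low side (both -0.94), and the deepest RVC and RVT values are *MMP13* (at least 6.88, from 0 UMIs in S) and *PRMT1* (-5.19).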

How the data were processed

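Single-cell libraries of A375 cells were made by the authors with the 10x Genomics Chromium v2 kit. According to the submitters' processing notes, bcl2fastq 2.20.0.422, Cell Ranger and GRCh38 were used. The deposited values are whole-number UMI counts per gene and barcode, without normalization. The annotation release and any filter applied before deposit are not given in the sources used here, and the barcodes deposited for S and RV exceed the cells the study's methods state.

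Barcodes with at least 500 genes and at most 20% mitochondrial UMIs were kept. Doublet scores (scrublet in scanpy 1.11.5) marked 1 to 5 barcodes by the tool's own threshold, which did not work here, so the highest scores were removed at 0.8% per 1000 barcodes. UMIs were summed per library and expressed as CPM with exact 95% intervals (python 3.11.15, numpy 2.4.6, pandas 2.3.3, scipy 1.17.1), which cover counting error only. The lowest level that can be told from 0 was set at 3 UMIs. Ratios were counted for genes listed in all 4 tables (32991 identifiers) whose mean over the libraries compared was 3 CPM or more. With 1 library per condition no test was run, and cells were not used as replicates. Thinning drew 1500 or 5000 UMIs from each cell at random. Correlations used Pearson residuals of a negative binomial model (theta 100, depth as offset). TMM factors came from edgeR 4.0.16, the G2/M gene list from Seurat 5.3.0 (R 4.3.3), symbols from GENCODE 29 and the current gene name table (33675 of 34241 identifiers matched), and figures from matplotlib 3.10.9.

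The members and the gene lists were chosen with earlier results of these data known. Named beside the members were up to 4 genes per list and comparison with the largest ratios past 2-fold at 3 CPM or more, the 10 highest and 5 lowest correlations with *RUNX1* in RV, and markers of other cell types; genes named as listed at 0 or as counter-examples, the chromosome window and the splits given were chosen after their values were seen. Other cell filters, scalings, depths, a pseudocount, GC centring and other measures of likeness were tried as alternatives. Ratio calculations were tested on simulated library sums with 200 genes set to 4-fold differences, and correlations on simulated cells. *RUNX1-IT1* was not matched to an identifier and is not analysed here, and 1 gene of the turnover list was left out and is not reported here.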

Additional observations from a re-analysis of the deposited data

Results flagged for a closer look

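The *RUNX1* level went opposite ways against S in different libraries. Its log2 ratio was 2.41 in RV and 1.01 in RVT, and -0.36 in RVC, each with a counting interval that leaves out 0. The difference between these ratios was not tested, since each condition has 1 library, and the ratios share S. At 1500 UMIs per cell the RVC log2 ratio was -0.15. The shares of cells with a *RUNX1* UMI at that depth had overlapping intervals in S (1.34% to 1.99%) and RVC (1.20% to 1.77%). In RVC against S, 65.9% of genes had a larger ratio than *RUNX1*, so its RVC value lay within the bulk of the genes.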

How the results depend on the processing

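No paired analysis was possible because each condition has 1 library, which also means that no library could be left out. Of 219 values recomputed under an alternative, 156 stayed within the counting interval or within 1.5 times the count, and none turned the direction of a ratio past 2-fold. The log2 ratio of *RUNX1* in RV against S stayed between 2.31 and 2.50 in all 9 alternatives. With TMM factors the log2 ratios were -0.58 for *RUNX1* in RVC against S, 0.49 for *RUNX1* and 2.204 for *RUNX2* in RVT against S, and 1.07 for *RUNX1* and -1.42 for *RUNX2* in RVT against RVC. Centring on genes of like GC content gave *RUNX2* 3.30 in RVC against S, 1.93 in RVT against S and -1.58 in RVT against RVC, and a pseudocount of 1 CPM gave 3.33 and 2.27 in the first pair of comparisons. Cells thinned to 1500 UMIs gave -0.15 for *RUNX1* in RVC against S. The counts of genes past 2-fold were 196, 2879, 3597 and 1844 with at least 10 CPM in the mean and 2806, 8839, 10296 and 7004 with no filter, in place of 408, 4511, 5692 and 3138, in RV, RVC and RVT against S and RVT against RVC, as fewer or more genes were counted. Shares of cells with a *RUNX1* UMI grew with depth, S going from 1.64% to 9.66%, RV from 8.28% to 39.8%, RVC from 1.47% to 3.72% and RVT from 3.33% to 6.55% with all UMIs, and S and RV to 5.45% and 22.9% at 5000 UMIs. Of the 10 genes most like *RUNX1* in RV cells, 6 stayed among the first 10 with log1p values, 4 without the third of cells highest in G2/M genes and 0 by the ratio of levels, though 10, 10 and 1 stayed among the first 50; the cause was not tested.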
